A study of Mus musculus with 6 samples.

Results

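RNA polymerase II (Pol II) and the factors that bring it to promoters were examined through 44 genes, chosen by name out of the 34745 genes listed for sorted hematopoietic stem cells (HSCs). The genes encode the 12 subunits of Pol II, 15 subunits of TFIID, 7 subunits of TFIIA, TFIIB, TFIIE and TFIIF, 7 subunits of the TFIIH core, and the 3 subunits of the kinase that TFIIH carries, the CDK-activating kinase. All 44 were found, 43 by symbol and *Taf4* by its gene identifier, because the tables name it Taf4a. Of these, 43 had enough counts to be tested, and *Polr2k* did not.

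HSCs (LSK, CD150+CD34-CD48-) were sorted from the bone marrow of adult C57BL/6 mice, and their RNA was sequenced in bulk for 3 WT samples and 3 samples with induced deletion of *Med23* (KO). All 6 samples carry the floxed allele Med23floxp/flowp, and only the KO samples carry Mx1-cre besides. *Mx1-cre* is driven by an interferon-responsive promoter, and the study's methods describe injection of poly(I:C), an RNA mimic that triggers interferon, to induce deletion. The promoter is also active outside the blood system, and the labels give neither the interval after injection nor whether each sample came from a separate animal. The p-values therefore measure the spread between these samples, which may be technical. Med23 is a subunit of Mediator, the complex that links transcription factors bound to DNA with Pol II, and the comparison asks how the genes of the basal transcription machinery were expressed after its deletion.

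To start a transcript, TFIID binds the promoter through its TATA-binding protein (TBP) and TBP-associated factors (TAFs). TFIIA and TFIIB stabilize and extend this contact, and TFIIF accompanies Pol II to the promoter. TFIIE and TFIIH then join to form the preinitiation complex, in which TFIIH opens the DNA and its kinase phosphorylates the C-terminal domain of the largest Pol II subunit. These factors are used by nearly every protein-coding gene and are expressed in all cell types of the blood system.

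The promoter sequences of 3 of the 4 members whose WT and KO samples did not overlap are shown, since these members are described one by one. That of *Tbp* is added for the core of TFIID. All come from the RefSeq promoter table (GRCm38.p6), which held 43 windows of 300 bases for 36 of the 44 members (all but *Polr2d*, *Polr2g*, *Polr2k*, *Taf2*, *Taf7*, *Gtf2e2*, *Ercc3* and *Ccnh*). For *Gtf2a1*, *Taf11* and *Polr2h*, which have a second window, the one that starts further upstream is given. Each is written 5′ to 3′ on its own strand. Capitals mark CCGGAA or its reverse complement TTCCGG, a form of the motif bound by ETS factors, here called the ETS core. Other sequences with GGAA, which occur for example in the *Polr2h* and *Tbp* windows, are not marked.
Gtf2a1 (chr12:91590438-91590737, minus strand): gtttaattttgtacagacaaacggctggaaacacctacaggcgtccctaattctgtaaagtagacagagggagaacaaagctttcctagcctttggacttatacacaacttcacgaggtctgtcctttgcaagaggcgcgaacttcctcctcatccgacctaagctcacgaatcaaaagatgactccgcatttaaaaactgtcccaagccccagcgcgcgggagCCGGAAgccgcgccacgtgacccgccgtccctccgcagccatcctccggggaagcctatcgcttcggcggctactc
Taf11 (chr17:27909193-27909492, minus strand): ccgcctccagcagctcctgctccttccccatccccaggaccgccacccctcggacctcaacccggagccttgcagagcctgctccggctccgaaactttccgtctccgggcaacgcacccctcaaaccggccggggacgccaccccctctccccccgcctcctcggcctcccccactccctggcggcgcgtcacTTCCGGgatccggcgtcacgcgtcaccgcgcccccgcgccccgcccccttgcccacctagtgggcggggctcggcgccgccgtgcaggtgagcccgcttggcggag
Polr2h (chr16:20717576-20717875, plus strand): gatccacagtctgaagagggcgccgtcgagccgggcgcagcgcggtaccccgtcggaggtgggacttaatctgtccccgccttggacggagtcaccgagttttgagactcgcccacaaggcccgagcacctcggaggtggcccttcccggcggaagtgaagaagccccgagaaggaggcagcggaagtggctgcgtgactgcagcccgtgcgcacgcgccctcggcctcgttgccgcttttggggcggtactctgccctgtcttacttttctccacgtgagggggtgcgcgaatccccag
Tbp (chr17:15499638-15499937, plus strand): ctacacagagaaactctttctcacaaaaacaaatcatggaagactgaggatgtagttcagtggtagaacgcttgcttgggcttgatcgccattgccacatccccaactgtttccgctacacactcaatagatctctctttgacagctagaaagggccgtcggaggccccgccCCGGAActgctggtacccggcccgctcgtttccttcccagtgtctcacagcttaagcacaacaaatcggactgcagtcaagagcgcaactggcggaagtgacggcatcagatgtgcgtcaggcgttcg
The ETS core lay 26 bases before the annotated start in *Gtf2a1*, 56 bases before it in *Taf11* and 78 bases before it in *Tbp*. Neither these letters nor their reverse complement occurred in the *Polr2h* window shown, or in the second windows of *Gtf2a1*, *Taf11* and *Polr2h*. Among the 43 member windows, 19 (44.2%) held the ETS core on either strand. This was the case for 14.9% of all 32851 windows in the table and for 27.8% of the 11678 windows of genes tested here. The GC box GGGCGG was in 67.4% of member windows, 35.7% of all windows and 62.4% of windows of tested genes, and the CCAAT box was in 25.6%, 37.4% and 37.6%. The sequence TATAAA was in 18.6% of member windows, compared with 13.6% of all windows and 6.79% of windows of tested genes. The 8-letter motifs of NRF1 (GCATGCGC) and YY1 (AAGATGGC) were in 11.6% and 16.3% of member windows, in 2.71% and 2.75% of all windows and in 5.33% and 4.51% of windows of tested genes. All motifs were searched on both strands, some windows of 1 gene overlap, and the shares are descriptions without a test. The median number of CG dinucleotides was 24 in member windows, 20 in windows of tested genes and 7 in all windows.

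Reads counted on genes were between 3537269 and 8131344 per sample, and 3 counts corresponded to between 0.369 and 0.848 CPM, the unit of counts divided by library size. *Med23* (chromosome 10 from 24869986 to 24913681, GRCm38 as are the positions below) was at 47.6, 70.8 and 24.1 normalized CPM in WT and at 31.6, 29.8 and 36.8 CPM in KO, here and below in the order of replicates 1, 2 and 3, with a log2 fold change of -0.54 (SE 0.41, adjusted p = 0.989). Counts per gene do not separate deleted from remaining exons, so these levels do not measure the deletion itself. The paper reports that poly(I:C) led to efficient removal of *Med23* in the hematopoietic system. The library labelled WT replicate 3 was below all KO libraries, so its *Med23* level by these counts went against its label. The log2 fold change was -0.85 with that library removed and -0.93 with replicates 1 and 2 only. In that library the skeletal muscle marker *Myh3* was at 102 CPM, against 0 in KO. Markers without overlap, *Myh3* among them, have every WT library on the same side by definition, so they cannot test the label. In *Slamf1*, *Tek* and *Mllt3* that library was below all KO libraries. The label was not tested. That library also had the lowest total, and 18.1% of its counts fell on the genes Gm26917 and Gm42418, against 6.11 to 11.96% in the other libraries. Replicate 3 of both groups had 4819 and 7853 *Xist* counts in WT and KO and at most 1 count on 4 Y-linked genes, whereas replicates 1 and 2 had 8 to 111 and 1036 to 1855. All 12 HSC markers passed the filter, with summed levels of 2645 to 2984 CPM in WT and 2425 to 2685 CPM in KO. The groups did not overlap for 5 of them (12.4% of all genes), *Kit*, *Ly6a*, *Hlf* and *Esam* with lower and *Mecom* with higher values in KO, and none passed the adjusted threshold. Of 11 skeletal muscle markers, 10 were tested, and 8 of these (80%) did not overlap and were lower in KO, compared with 6.15% of all genes. *Acta1*, *Actc1* and *Myh3* passed the adjusted threshold (adjusted p = 0.00432, 0.0254 and 0.00432 from edgeR), as did 9 genes in all. The sum of the 11 markers was 145 to 360 CPM in WT and 9.92 to 39.9 CPM in KO, where *Actc1*, *Myh3*, *Tnnc2* and *Myl1* were at 0. The sum of 10 granulocyte and monocyte markers was 487 to 649 CPM in WT and 719 to 1041 CPM in KO, with *Ltf* at 0 in all libraries. Of the 4 that were tested, 2 had estimates above 0 and 2 below. *Prtn3* was at 83.0 to 141 CPM in WT and 305 to 355 CPM in KO, *Mpo* was at 175 CPM in KO replicate 3 and at most 4.72 CPM elsewhere, and *Lyz2* overlapped at 395 to 521 CPM and 410.1 to 475 CPM. The erythroid sum was 31.2 to 67.7 CPM in WT and 27.3 to 59.9 CPM in KO, and the lymphoid sum was 79.8 to 112 CPM and 74.2 to 88.2 CPM, with *Cd3e*, *Cd3d*, *Cd8a* and *Ms4a1* at 0 throughout. The part of other cells in the values below was not tested.

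Of the 43 members tested, none differed between WT and KO HSCs at an adjusted p under 0.05 (edgeR quasi-likelihood test). DESeq2, limma voom and limma on FPKM gave 0 members as well. Among all 12513 genes tested, 9 passed this threshold, or 0.0719%. At an unadjusted p under 0.05 there was 1 member, *Gtf2a1*, which was higher in KO, while 5.71% of all genes were at that level, 2.94% with higher and 2.77% with lower values in KO. The WT and KO samples did not overlap for 4 members (9.30%), compared with 12.4% of all genes. *Gtf2a1* and *Taf11* were higher in each KO sample than in any WT sample (6.25% of all genes), and *Polr2h* and *Ccnh* were lower (6.15%). For each of these 4 members an exact permutation test (two-sided) returned p = 0.1, which is the lowest that 3 samples against 3 can reach.

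The median log2 fold change of the members was 0.08, with 25 estimates above 0 and 18 below, and that of all genes was -0.01. Apart from *Gtf2a1* (1.25), all estimates lay between -0.49 and 0.51. The median standard error was 0.36 for the members and 0.42 for all genes. For 19 members (44.2%) the 95% confidence interval stayed within 1 log2 unit of 0 on both sides, as it did for 32.2% of all genes. For the remaining members a 2-fold change in at least one direction lay within the interval. In bulk samples, less RNA per cell and fewer cells of a type cannot be told apart. With replicates 1 and 2 only, the median was -0.01, with 21 estimates above 0 and 22 below.

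**Figure D1:**
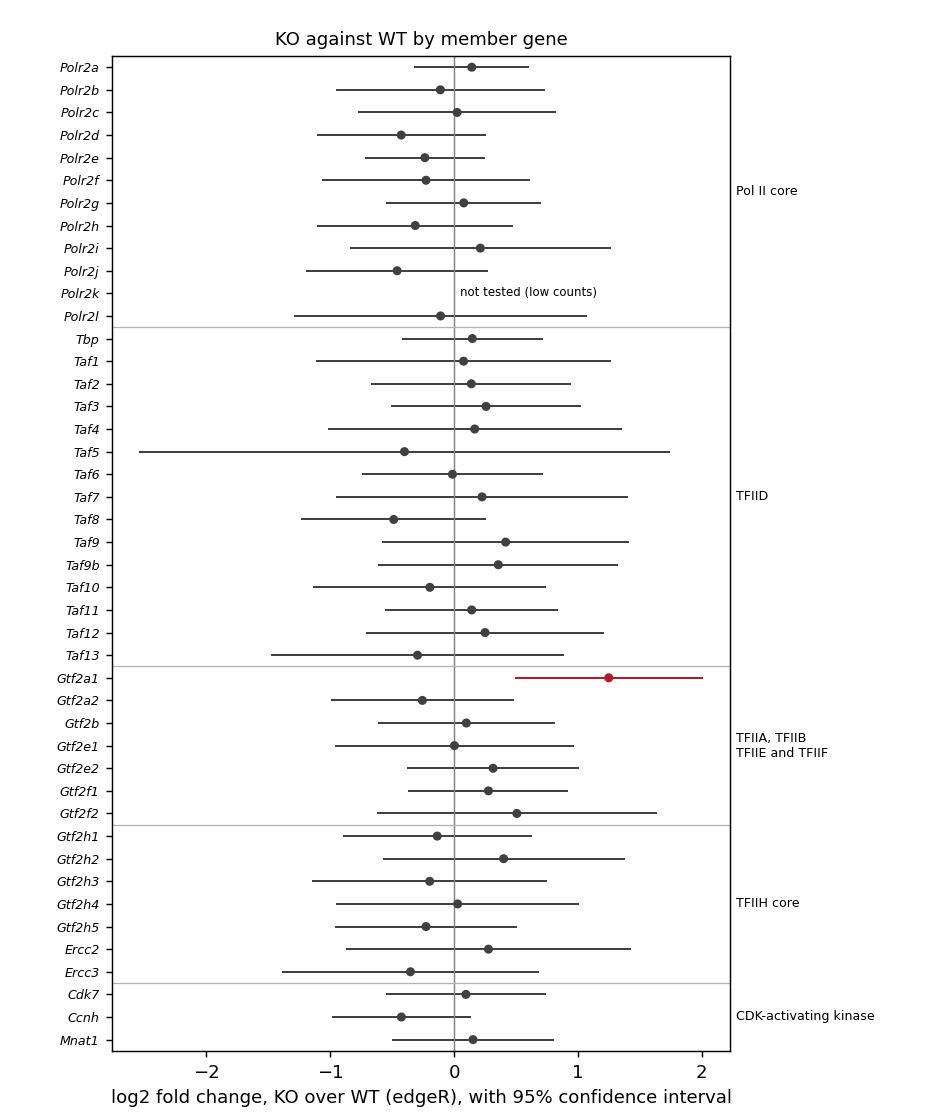
The log2 fold change of KO over WT (x axis) is plotted for each of the 43 tested members (y axis, grouped by role), with points for the edgeR estimate and lines for the 95% confidence interval. The interval of *Gtf2a1*, in red, lies above 0 and every other interval includes 0.

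The estimate farthest from 0 was that of *Gtf2a1*, 1 of the 2 genes of TFIIA. *Gtf2a1* (ENSMUSG00000020962, chromosome 12 from 91555262 to 91590487) encodes the precursor that is cleaved into the alpha and beta subunits of TFIIA, the factor that stabilizes TBP on DNA. It was at 25.4, 28.3 and 20.7 CPM in WT and at 69.7, 63.0 and 44.7 CPM in KO. All KO samples were above all WT samples. The gap between the groups was wider than the range within WT but narrower than the range within KO. The mean was 24.8 ± 3.82 CPM in WT and 59.1 ± 12.9 CPM in KO (SD, n = 3), with a log2 fold change of 1.25 (SE 0.34, 95% confidence interval from 0.50 to 2.00). The adjusted p was 0.418 with edgeR and 0.0738 with DESeq2, so the difference did not pass the threshold over all genes. The unadjusted p of the edgeR model fitted across all genes was 0.00403. With any 1 of the 6 samples removed, the estimate stayed between 1.12 and 1.42. It was 1.14 when the removed library was that labelled WT replicate 3, and 1.32 with replicates 1 and 2 only.

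*Gtf2a2* encodes the gamma subunit of TFIIA. It was at 63.4, 54.0 and 103 CPM in WT and at 53.7, 53.1 and 77.1 CPM in KO. These values overlapped, and the log2 fold change was -0.26 (SE 0.33, adjusted p = 0.997). The ratio of *Gtf2a1* to *Gtf2a2* CPM was 0.401, 0.524 and 0.201 in WT and 1.30, 1.18 and 0.580 in KO, without overlap. *Gtf2a2* and this ratio were chosen after their values were seen, and the ratio was not tested. A paralog of *Gtf2a1*, *Gtf2a1l*, had no counts in any library. A pseudogene with at least 90% identity over at least 50% of the coding sequence is annotated for *Gtf2a1* (Gm5435), and how reads that match both were counted is not given in the sources used here.

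**Figure D2:**
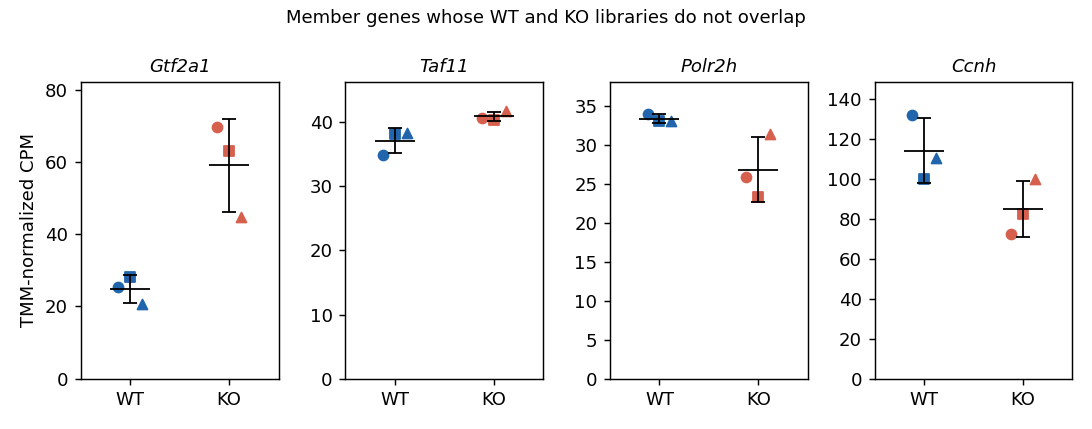
Normalized CPM of *Gtf2a1*, *Taf11*, *Polr2h* and *Ccnh* in the 3 WT (blue) and 3 KO (red) samples, with circles, squares and triangles for replicates 1, 2 and 3, and black bars for the mean and SD. The groups do not overlap in any panel, by a wide gap in *Gtf2a1* (at most 28.3 CPM in WT and at least 44.7 CPM in KO) and by a narrow one in *Ccnh* (at least 100.3 CPM in WT and at most 100.2 CPM in KO).

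No other gene among TFIIA, TFIIB, TFIIE and TFIIF was at an unadjusted p under 0.05. *Gtf2b* (chromosome 3 from 142765045 to 142783606), which encodes the bridge between TBP and Pol II, was at 62.5, 73.5 and 55.6 CPM in WT and at 67.9, 45.7 and 92.1 CPM in KO, with a log2 fold change of 0.10 (95% confidence interval from -0.61 to 0.81, adjusted p = 0.997). The WT range lay inside the KO range. *Gtf2f1*, the large subunit of TFIIF and the member of this group with the highest FPKM, was at 101, 84.8 and 64.0 CPM in WT and at 79.4, 129.8 and 93.5 CPM in KO, with a log2 fold change of 0.28 (SE 0.29, adjusted p = 0.997). *Gtf2e1*, the large subunit of TFIIE, had the lowest FPKM of the group. It was at 39.4, 26.4 and 22.3 CPM in WT and at 36.9, 34.2 and 17.2 CPM in KO, and its log2 fold change of 0.0029 (SE 0.43, adjusted p = 0.9996) changed sign under other settings. *Gtf2e2* and *Gtf2f2* had log2 fold changes of 0.31 and 0.51 (adjusted p = 0.992 and 0.997). In all, 6 of these 7 estimates were above 0, with a median of 0.28.

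For the 11 tested subunits of Pol II, 4 estimates were above 0 and 7 below, with a median log2 fold change of -0.11 and none at an unadjusted p under 0.05. *Polr2a* (ENSMUSG00000005198, chromosome 11 from 69733997 to 69758637) encodes the largest subunit, which holds part of the active site and the C-terminal domain. It had the most counts of the members, with 271, 333 and 248 CPM in WT and 283, 294 and 365 CPM in KO. Its samples overlapped, and the log2 fold change was 0.14 (95% confidence interval from -0.32 to 0.60, adjusted p = 0.997). *Polr2j*, a small subunit found in Pol II only, had the estimate farthest from 0 in the group, with 64.0, 57.5 and 103 CPM in WT, 43.0, 52.0 and 68.0 CPM in KO and a log2 fold change of -0.46 (SE 0.33, adjusted p = 0.989). The library labelled WT replicate 3 stood above all others, and the rest overlapped.

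*Polr2d*, which forms the stalk of the enzyme with *Polr2g*, had the highest FPKM of all members. It was at 85.9, 65.7 and 89.6 CPM in WT and at 41.7, 62.2 and 75.3 CPM in KO, with a log2 fold change of -0.43 (SE 0.30, adjusted p = 0.989). KO replicates 1 and 2 were below all WT samples, and KO replicate 3 was within their range. Its partner *Polr2g* had a log2 fold change of 0.08 (adjusted p = 0.997). *Polr2h* (chromosome 16 from 20717665 to 20722267), a subunit that Pol II shares with Pol I and Pol III, was at 34.0, 33.1 and 33.1 CPM in WT and at 25.9, 23.3 and 31.4 CPM in KO. The groups did not overlap, but KO replicate 3 was close to the WT samples. The log2 fold change was -0.31 (SE 0.35, adjusted p = 0.997). *Polr2k*, also shared by the 3 polymerases, had 3, 7 and 6 counts in WT and 6, 4 and 3 counts in KO, too few to compare. Pseudogene copies of *Polr2k* are annotated at 7 loci, and the rule for reads that match several loci is not given in the sources used here. *Polr2b*, *Polr2c*, *Polr2e*, *Polr2f*, *Polr2i* and *Polr2l* had log2 fold changes between -0.24 (*Polr2e*) and 0.21 (*Polr2i*).

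TFIID was represented by 15 tested genes, of which 10 had estimates above 0 and 5 below, with a median log2 fold change of 0.14. *Tbp* (ENSMUSG00000014767, chromosome 17 from 15499888 to 15528379) was among the most uniform members, with 78.3, 72.6 and 60.6 CPM in WT and 81.4, 75.3 and 77.7 CPM in KO. Its samples overlapped and the log2 fold change was 0.15 (95% confidence interval from -0.41 to 0.71, adjusted p = 0.997). *Taf8*, the partner of *Taf10* in a histone-fold pair, had the highest FPKM of TFIID and the estimate farthest from 0. It was at 48.8, 75.9 and 79.7 CPM in WT and at 48.4, 35.3 and 62.1 CPM in KO, with a log2 fold change of -0.49 (SE 0.33, adjusted p = 0.989). The groups overlapped, because WT replicate 1 was within the KO range. *Taf5*, a scaffold subunit, had the lowest FPKM of the tested members. It was at 6.15, 4.42 and 2.47 CPM in WT and at 1.82, 5.64 and 2.43 CPM in KO, and its log2 fold change of -0.40 had an SE of 0.96, the widest of the members. *Taf2*, *Taf3*, *Taf4*, *Taf6*, *Taf7* and *Taf10* had log2 fold changes between -0.20 (*Taf10*) and 0.26 (*Taf3*). Of the exon bases of *Taf10*, 45.9% are also covered by *Ilk* on the opposite strand, the largest such overlap among 15 members, and the strand setting of the counting is not given in the sources used here.

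*Taf11* (chromosome 17 from 27901122 to 27909844), which pairs with *Taf13*, was at 34.9, 38.1 and 38.3 CPM in WT and at 40.7, 40.4 and 41.7 CPM in KO. The groups did not overlap, although the difference was small, with a log2 fold change of 0.14 (SE 0.31, adjusted p = 0.997). Its within-group SD on the log2 scale, 0.056, was the lowest of the members. *Taf13* itself was at 31.4, 10.6 and 36.5 CPM in WT and at 22.3, 27.5 and 13.8 CPM in KO (-0.30 on the log2 scale). *Taf12*, the partner of *Taf4*, was at 41.6, 25.4 and 89.9 CPM in WT and at 56.9, 62.4 and 66.2 CPM in KO, with a log2 fold change of 0.25 (SE 0.43, adjusted p = 0.997). Its level was highest in the library labelled WT replicate 3, and with that library removed the log2 fold change was 0.89 (SE 0.35, unadjusted p = 0.031 and adjusted p = 0.67 from edgeR), and *Taf12* was then the only other member at an unadjusted p under 0.05. *Taf12*, *Taf13* and *Taf1* were chosen after their values were seen. *Taf1*, the largest TAF, had the widest spread within groups (SD 0.91 on the log2 scale), with 53.3, 57.9 and 46.7 CPM in WT and 109, 39.3 and 18.4 CPM in KO.

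The paralogs *Taf9* and *Taf9b* can each pair with *Taf6*. *Taf9* was at 47.2, 19.2 and 32.1 CPM in WT and at 60.0, 45.5 and 25.7 CPM in KO, and its log2 fold change was 0.42 (SE 0.45, adjusted p = 0.997). *Taf9b* was at 25.01, 49.4 and 30.6 CPM in WT and at 51.7, 23.8 and 59.5 CPM in KO, and its log2 fold change was 0.36 (SE 0.43, adjusted p = 0.997). The libraries with the least *Taf9*, WT replicate 2 and KO replicate 3, were among those with the most *Taf9b*. KO replicate 1 went the other way, with the most *Taf9* (60.0 CPM) and more *Taf9b* (51.7 CPM) than WT replicate 2 (49.4 CPM). The ratio of *Taf9* to *Taf9b* was 1.89, 0.388 and 1.05 in WT and 1.16, 1.91 and 0.432 in KO, and their sum was 72.2, 68.6 and 62.7 CPM in WT and 112, 69.3 and 85.2 CPM in KO. The values of *Taf9* are uncertain, since 73.8% of its exon bases are shared with *Ak6* on the same strand.

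For the TFIIH core, 3 of 7 estimates were above 0, with a median log2 fold change of -0.14. *Gtf2h1*, a core subunit, was at 80.6, 66.7 and 50.7 CPM in WT and at 83.7, 40.9 and 55.9 CPM in KO, with a log2 fold change of -0.14 (SE 0.34, adjusted p = 0.997). *Gtf2h2* had the estimate farthest from 0, with 32.4, 27.2 and 17.0 CPM in WT, 44.0, 37.3 and 20.03 CPM in KO and a log2 fold change of 0.40 (SE 0.44, adjusted p = 0.997). *Ercc2*, the helicase that anchors the kinase, had the lowest FPKM of the group. It was at 10.9, 18.9 and 23.2 CPM in WT and at 15.8, 14.7 and 33.6 CPM in KO, with a log2 fold change of 0.28 (SE 0.51, adjusted p = 0.997). In these 3 genes the groups overlapped, and *Gtf2h2* was lowest in the replicate 3 libraries of both groups. *Ercc3*, the translocase that opens promoter DNA, had a log2 fold change of -0.35 (adjusted p = 0.997). *Gtf2h3*, *Gtf2h4* and *Gtf2h5* lay between -0.23 (*Gtf2h5*) and 0.03 (*Gtf2h4*).

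Of the CDK-activating kinase, *Cdk7* (chromosome 13 from 100702631 to 100730939), the catalytic subunit, was at 90.8, 114 and 58.7 CPM in WT and at 102, 89.0 and 91.1 CPM in KO, with a log2 fold change of 0.10 (95% confidence interval from -0.54 to 0.73, adjusted p = 0.997). *Ccnh* (chromosome 13 from 85189408 to 85223469), which encodes cyclin H, was at 132, 100.3 and 111 CPM in WT and at 72.3, 82.8 and 100.2 CPM in KO, with a log2 fold change of -0.43 (95% confidence interval from -0.98 to 0.13, adjusted p = 0.959). The KO samples were below the WT samples, but WT replicate 2 and KO replicate 3 were nearly equal, and the groups overlapped with upper-quartile scaling. *Mnat1*, the assembly factor of the kinase, was at 69.5, 52.7 and 50.1 CPM in WT and at 58.6, 56.4 and 76.7 CPM in KO, with a log2 fold change of 0.15 (SE 0.29, adjusted p = 0.997). The intervals of all 3 genes stayed within 1 log2 unit of 0.

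**Figure D3:**
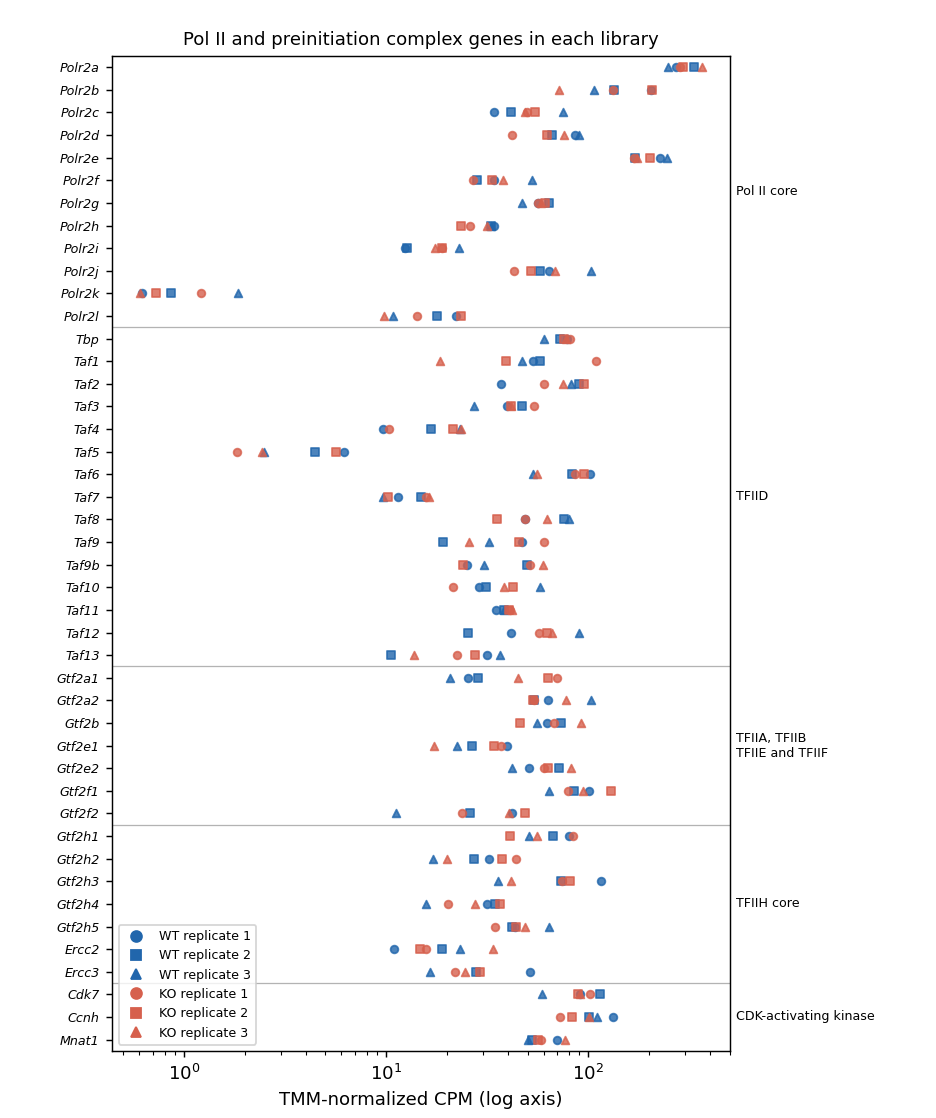
Normalized CPM (log axis) of the 44 members in the 3 WT (blue) and 3 KO (red) samples, with circles, squares and triangles for replicates 1, 2 and 3. The colors are mixed in most rows, *Gtf2a1* has its KO points to the right, and the library labelled WT replicate 3 is often at an end.

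The library labelled WT replicate 3 was the lowest for 16 of the 43 tested members and the highest for 12, compared with 3 to 8 and 2 to 9 in the other libraries. Its median log2 deviation from the mean of all 6 libraries was -0.69 for the TFIIH core, -0.49 for TFIIA, TFIIB, TFIIE and TFIIF, and 0.32 for the Pol II subunits. In the other libraries these medians stayed between -0.21 and 0.27. The median within-group SD was 0.40 on the log2 scale for the members and 0.44 for 3126 other genes at similar levels. Without this library, 2 members were at an unadjusted p under 0.05, as were 6.92% of all genes, and 7 members did not overlap, as did 23.6% of all genes with 2 WT samples.

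**Figure D4:**
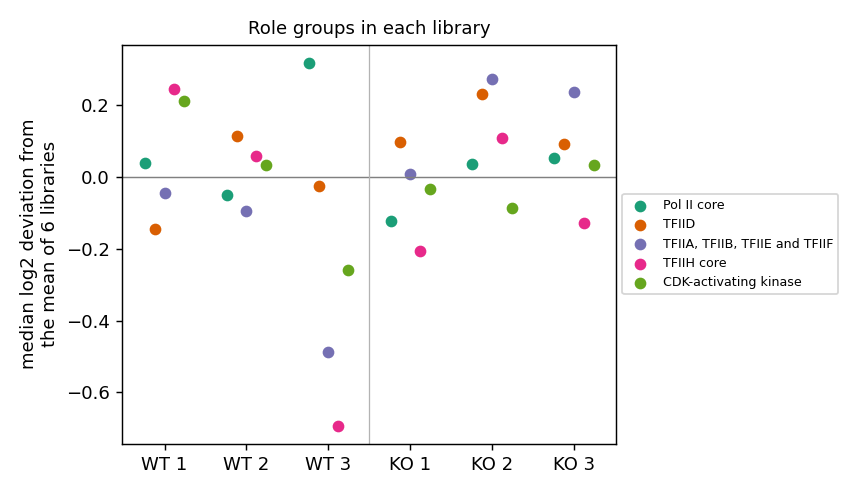
Median log2 deviation of each role group (colors) from the mean of the 6 libraries, by library. The library labelled WT replicate 3 holds both the lowest point, -0.69 for the TFIIH core, and the highest, 0.32 for the Pol II subunits.

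Levels of different genes can be compared only per length, and the lengths behind the deposited FPKM (fragments scaled by gene length and library total) ran from 543 bases (*Polr2f*) to 16310 bases (*Tbp*). For 19 of the 44 members this length was more than 2 times the principal transcript in the GENCODE annotation. Mean FPKM ranged from 1.04 (*Polr2k*) to 72.6 (*Polr2d*). The medians of the role groups were 31.9 for Pol II, 14.1 for TFIIA, TFIIB, TFIIE and TFIIF, 12.003 for the CDK-activating kinase, 7.84 for the TFIIH core and 6.48 for TFIID. Per kilobase of principal transcript the medians were 37.1, 37.7, 45.9, 18.1 and 14.4 in the same order, so that Pol II and the CDK-activating kinase exchanged places and the other groups kept theirs. *Tbp* ranked 36 of 44 by FPKM (4.56) and 13 of 44 per principal transcript (36.0), and *Gtf2a2* moved from rank 26 to rank 3. *Gtf2a1* stayed low on both scales, at rank 31 (6.09) and rank 39 (6.99). The length used as a divisor cancels in each comparison of KO with WT. A relation to length that differs between libraries, as described at the end, does not cancel.

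**Figure D5:**
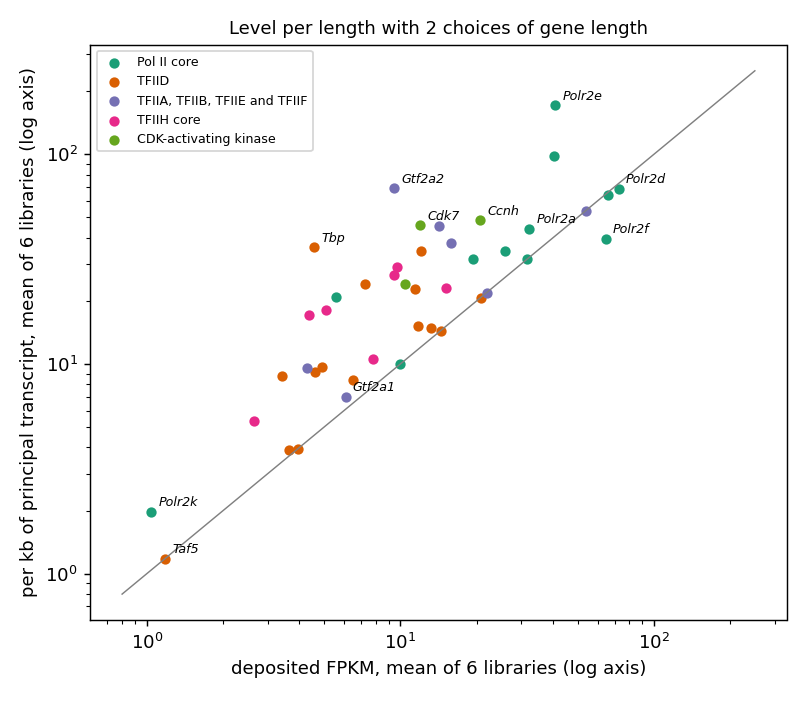
Mean FPKM of the 6 libraries (x axis, log) against the same level per kilobase of principal transcript (y axis, log) for the 44 members, colored by role group, with a line of equality. Members on the line, such as *Taf5*, have the same length in both, and those far above it, such as *Tbp* and *Gtf2a2*, were divided by a length that was over 7 times that of the principal transcript.

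Genes that act next to this machinery were also compared. None of the 69 tested genes in 5 related lists passed the adjusted threshold, and 1 was at an unadjusted p under 0.05, a level reached by 5.71% of all genes. The groups did not overlap for 4 of the 69, compared with 12.4% of all genes. The gene at an unadjusted p under 0.05 was *Rpap1*, which encodes a factor for the assembly and nuclear import of Pol II, at 79.3, 122 and 105 CPM in WT and 69.1, 63.2 and 64.6 CPM in KO. All KO samples were below all WT samples, and the log2 fold change was -0.64 (SE 0.26, unadjusted p = 0.034 and adjusted p = 0.799 from edgeR). Of the 10 Pol II assembly factors, 6 had estimates below 0, and 3 did not overlap, *Gpn2* with higher and *Rpap1* and *Rpap3* with lower values in KO. The remaining gene without overlap was *Ccnk*, a cyclin of kinases that act on the C-terminal domain, at 57.0, 66.1 and 63.7 CPM in WT and 39.5, 56.4 and 54.6 CPM in KO. *Gpn2*, *Rpap3* and *Ccnk* were chosen after their values were seen. Among 8 tested paralogs and regulators of TBP, 23 pausing and elongation factors, 9 kinases and phosphatases of the C-terminal domain and 19 subunits of Pol I and Pol III only, none was at an unadjusted p under 0.05. Their median log2 fold changes were 0.09, 0.11, -0.18 and -0.15.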

How the data were processed

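Bulk RNA-seq of 3 WT and 3 KO samples was analysed, with groups and replicate numbers taken from the sample titles. The authors deposited raw counts per gene and FPKM for the same samples. The submitters' processing notes name TopHat, HTSeq and mm10. The annotation release and the strand setting are not given in the sources used here. The deposited FPKM values equal counts divided by a fixed gene length and the library total, to within 0.00414% over 10368 genes, so that total and scaling affect both alike. The 44 members and all gene lists were chosen with earlier results of these data known.

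Counts of 12513 genes that passed filterByExpr were normalized by TMM and tested with edgeR 4.0.16 (quasi-likelihood, R 4.3.3), with Benjamini-Hochberg adjustment over all of them. The study's methods name an unpaired t-test only, so a count test was used instead. CPM in the text are TMM-normalized. Intervals and the smallest detected level (3 counts) cover the spread between samples and counting error, respectively. Alternatives were DESeq2 1.42.0, limma 3.58.1 (voom with sample weights, and log2 of FPKM plus a pseudocount of 1 or 0.1), upper-quartile scaling, other filters, a replicate block and leaving out each sample. An analysis of replicates 1 and 2 only was added after seeing the data. The scripts were tested on simulated data.

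Values in every sample were given for *Med23*, for *Polr2a*, *Tbp*, *Gtf2b* and *Cdk7*, for members at an unadjusted p under 0.05 or without overlap between groups, for the highest, lowest and most changed member of each role group, for *Taf9* and *Taf9b*, and for members that failed the filter. Genes of related lists were named at an unadjusted p under 0.05. Other genes are marked in the text as chosen after their values were seen. Gene positions and transcript lengths come from GENCODE M21 (GRCm38), which held 98.6% of the listed identifiers. Pseudogene copies were found with blastn 2.17.0 by matching coding sequences (at least 90% identity over at least 50% of the length), and promoters come from RefSeq. Figures were drawn with matplotlib 3.10.9 in Python 3.11.15.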

Additional observations from a re-analysis of the deposited data

How the results depend on the processing

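No member passed the adjusted threshold under any alternative, and *Gtf2a1* was the lone member at an unadjusted p under 0.05 in each of them, except that *Taf12* joined it without WT replicate 3. The log2 fold change of *Gtf2a1* ran from 1.08 to 1.42 and its adjusted p from 0.0738 to 0.887. Over all genes, 9 passed the threshold with edgeR, 120 with DESeq2, 0 with voom, 15 with log2(FPKM + 1), 28 with log2(FPKM + 0.1), 18 with log2(FPKM + 1) without a filter, and 5 to 11 when one sample was left out. The cause of these differences was not tested. With one sample left out, 1 to 2 members were at an unadjusted p under 0.05, against 4.85 to 6.92% of all genes, and 5 to 11 did not overlap, against a background of 20.5 to 23.6% of genes, and with replicates 1 and 2 only it was 12 against 36.2%. These shares grow because fewer samples are compared.

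The replicate numbers do not come from shared animals or batches in the labels. Same-numbered WT and KO samples deviated from their group means with correlations of 0.170, 0.0324 and 0.170. For WT replicates 1 and 3, the correlations with differently numbered KO samples were lower, from -0.173 to -0.0103. WT replicate 2 correlated no better with its own number than with KO replicate 1 (0.0350). These correlations are across all genes tested. Deviations from a group mean cancel within the group, so a higher correlation with a single KO sample goes with lower ones elsewhere. Across the members, the same-numbered correlations were 0.202, -0.214 and 0.354, and WT replicate 1 correlated best with KO replicate 2 (0.453). Replicate 3 of both groups also stood apart in *Xist* and Y-linked counts, as given above. Whether same-numbered samples share a source was not tested. With the replicate block 5 genes passed the threshold and no member did. Of 335 pairs of a named gene and an alternative, 318 kept their direction and 17 reversed, and 14 of 21 genes never reversed. *Gtf2e1* turned to -0.0078 with upper-quartile scaling, -0.0028 with DESeq2 and -0.026 with the replicate block. *Gtf2b* turned to -0.10 with voom. With replicates 1 and 2 only, *Polr2a* was at -0.054, *Gtf2b* at -0.25, *Cdk7* at -0.088 and *Mnat1* at -0.074. With one sample left out, the log2 fold change ranged from -0.19 to 0.28 for *Gtf2e1*, from -0.17 to 0.32 for *Gtf2b*, from -0.45 to 0.081 for *Gtf2h1*, from -0.20 to 0.52 for *Ercc2* and from -0.12 to 0.33 for *Cdk7*. Without reversing, *Taf5* ranged from -1.03 (without KO replicate 2) to -0.07 (without WT replicate 1), *Polr2j* from -0.65 (KO replicate 3) to -0.16 (WT replicate 3), *Taf9* from 0.12 (KO replicate 1) to 0.78 (WT replicate 1), *Taf9b* from 0.11 (KO replicate 3) to 0.69 (WT replicate 2), *Gtf2f1* from 0.06 (KO replicate 2) to 0.44 (WT replicate 1), *Gtf2h2* from 0.17 (KO replicate 1) to 0.67 (KO replicate 3), *Mnat1* from 0.0047 (KO replicate 3) to 0.32 (WT replicate 1), *Polr2a* from 0.02 (KO replicate 3) to 0.27 (WT replicate 2), *Tbp* from 0.05 (WT replicate 3) to 0.23 (WT replicate 1), *Taf8* from -0.70 (KO replicate 3) to -0.30 (KO replicate 2) and *Polr2d* from -0.62 (KO replicate 3) to -0.22 (KO replicate 1). None of these was past the adjusted threshold in any of them. *Taf5* was not tested when at least 10 counts were required in every sample. The median SE of the members was 0.36, and the interval of 19 of the 43 excluded a 2-fold change in both directions.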

Other observations

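The deviation of a member from its mean over the 6 libraries was related to gene length in some libraries. Across the 43 tested members, Spearman's rho with the length behind the FPKM was 0.38 in KO replicate 1, -0.23 in WT replicate 3 and -0.20 in KO replicate 3, and between 0.0030 and 0.077 in the others. With the length of the principal transcript, rho was 0.24, -0.17 and -0.03 in these 3 libraries, -0.16 in WT replicate 1, 0.28 in WT replicate 2 and 0.15 in KO replicate 2. Among the members the relation therefore depends on the length used. Across all 12513 genes and with the length behind the FPKM, rho was 0.15, -0.13 and -0.06 in KO replicate 1, WT replicate 3 and KO replicate 3. With the principal transcript, across 11415 genes, it was 0.20, -0.16 and -0.04 in the same libraries, with the same signs. The points share a library, and genes are not independent replicates.

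*Gtf2a1l*, *Taf7l* and *Tbpl2*, germ cell paralogs of the general factors, had 0 counts in all libraries, which allows up to 0.369 to 0.848 CPM (counting error only).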
